A study of Mus musculus with 16 samples.

Results

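The regions described here are those that lie in the longest unbroken runs, by number of regions, in the open chromatin of mouse regulatory T cells (Treg cells). They were chosen from 1 deposited list of open chromatin regions by their spacing alone: on chromosomes 1 to 19 and X, neighbouring regions were linked when the gap between them was under 12.5 kb, and all regions in linked clusters of 20 or more were kept. This gave 5539 regions in 210 clusters, of 75356 regions on these chromosomes and 75363 in the whole list. The members made up 7.35% of the regions. Because gaps chose the members, the number of regions, the length, the density and the gaps of the clusters are given as descriptions, and no test was made on them.

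The study measured open chromatin by ATAC-seq, an assay whose transposase inserts sequencing adapters preferentially into DNA free of nucleosomes. It used 16 samples of CD4+CD25+ Treg cells from 8 C57BL/6 mice, and the labels name no mutant allele, reporter or drug. VAT (epididymal visceral adipose tissue) and Muscle (hindlimb skeletal muscle, injured per the series' design) had 2 mice each, and colonic lamina propria had 4, in 2 groups titled Colon_Nrp1p and Colon_Nrp1n. Each mouse also gave a spleen sample, in the groups Spl_wVAT, Spl_wMus, Spl_wCol_Nrp1p and Spl_wCol_Nrp1n, so that every one of the 8 groups held 2 samples. The age of the mice and the agent that injured the muscle are not given in the labels. CD25, the interleukin-2 receptor alpha chain, is the marker by which these cells were labelled, and it is also found on recently activated T cells that are not Treg cells. The list has 3 columns, chromosome, start and end, and no value for any sample. A cluster open in 1 tissue can therefore not be told from a cluster open in all of them, replicate error cannot be given, and the depth of each sample is unknown. The markers of the cell type could not be checked, since positions on mm9 were not assigned to genes here.

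Treg cells are CD4+ T cells that hold other immune cells in check, and their state depends on regulatory DNA: promoters at gene starts, and enhancers that can lie many kilobases away. Accessible DNA marks such elements but does not show which are active. Long runs of closely spaced enhancers are known in many cell types, often near genes that set the identity of the cell, and a link distance of 12.5 kb is the usual choice for stitching enhancers into such runs. The clusters described here were built from accessibility alone, with no histone mark or factor, and are called clusters of regions for that reason.

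The 210 clusters covered 17.7 Mb, or 0.670% of the length of the 20 chromosomes (taken to the end of the last region on each). Their members covered 1.14 of the 15.2 Mb that all regions covered. Inside the clusters 6.43% of bases lay in a region, against 0.537% elsewhere, and there were 3.14 regions per 10 kb inside and 0.267 elsewhere. The contrast follows from the rule and gives its scale. Even inside the clusters, most bases lay outside any called region.

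Most clusters were only a little above the minimum. Of the 210, 103 held 20 to 24 regions (2239 members), 56 held 25 to 29 (1496 members), 45 held 30 to 39 (1499 members) and 6 held 40 or more (305 members). The median cluster held 25 regions over 78.9 kb, with the 25th and 75th percentiles of length at 66.7 and 96.9 kb. Lengths ran from 37.7 to 192 kb, with a mean of 84.1 ± 25.7 kb (SD, n = 210 clusters). Near the threshold, 28 clusters held exactly 20 regions and 36 held 19. Those of 20 had a median length of 63.2 kb and those of 19 one of 64.0 kb, so clusters just inside and just outside the threshold were of similar length. The longest gap that was linked inside a cluster was 12487 bp, and the shortest gap that ended one was 12510 bp.

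The cluster with the most regions differed in size between chromosomes, from 65 regions on chromosome 14 to 28 on X. In the pair that led the list, on chromosome 14 (mm9, 122297812 to 122489979) and chromosome 12 (74635675 to 74827497), the median gap between members was 1517 and 2042 bp. Both ran for almost the same length, 192.2 and 191.8 kb, and no other cluster was longer than 158.4 kb. Their members differed in width: the median was 186 bp on chromosome 14 and 212 bp on chromosome 12. On chromosome 1 the largest cluster (60910294 to 61057726) held 49 regions with a median width of 201 bp. On chromosome 7 (80662409 to 80799355) it held 45 with a median of 187 bp. That cluster on chromosome 7 had a one-sided edge: the gap before it was 13031 bp, and the gap after it 117249 bp.

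The next sizes formed a close series. The largest cluster held 40 regions on chromosome 4 (144784224 to 144909668) and 39 on chromosomes 8 (84254233 to 84348327), 10 (80892341 to 81043735) and 17 (35301924 to 35412001). Chromosomes 13 (45922912 to 46031858), 15 (77606082 to 77764457) and 19 (4113109 to 4269376) each had a largest cluster of 38 regions. Their lengths were 108.9, 158.4 and 156.3 kb, so the same number of regions was packed at 3.49, 2.40 and 2.43 per 10 kb. The largest cluster of chromosome 6 (48613213 to 48697899) held 35 regions in only 84.7 kb, or 4.13 per 10 kb. Chromosomes 2 (18811959 to 18920135) and 11 (11556463 to 11651359) had 34 regions in their largest cluster, chromosome 9 (40905580 to 41002067) had 33 and chromosome 3 (88244385 to 88358257) had 32. Chromosomes 5 (66242209 to 66329536), 16 (23218605 to 23308402) and 18 (36007646 to 36102531) had 31 each. The largest cluster of X (163525745 to 163623223) held 28.

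**Figure D1:**
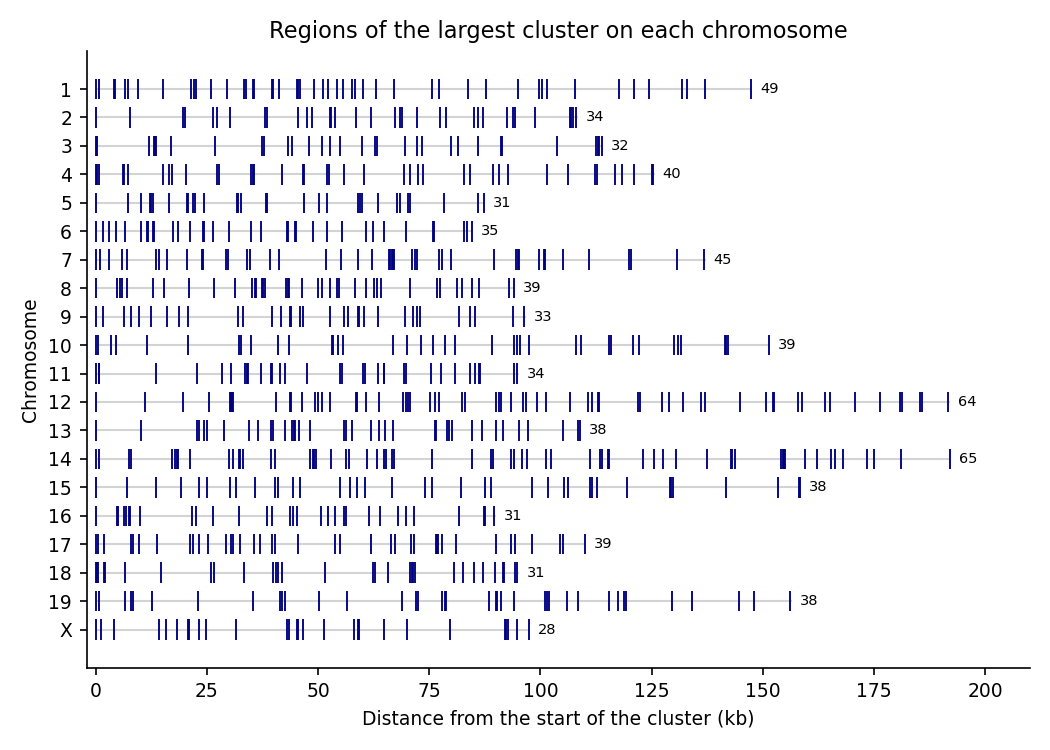
Regions (vertical lines) of the largest cluster on each chromosome (rows), by distance from the start of the cluster in kb (horizontal axis); the number after each row is its number of regions. Lines stand at region centres and are drawn wider than the regions to scale; many stand in tight pairs and triplets, and the rows of chromosomes 12 and 14 run to 192 kb.

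Members were not evenly spaced within a cluster. Over the 5329 gaps inside clusters, the median was 1950 bp and the 25th and 75th percentiles were 466 and 4975 bp. Of these gaps, 26.0% were under 500 bp and 36.5% under 1000 bp. The linked gaps of all smaller clusters (45980 gaps) had a median of 1667 bp, with percentiles of 288 and 5537 bp, and 33.3% were under 500 bp. Gaps in the large clusters were thus less often very short, and also less often over 10 kb, since 95.4% of them were under 10 kb against 93.3% of the others. At the level of members, 43.2% (2394) had a neighbour within 500 bp, slightly less than the 43.8% of regions in clusters of 10 to 19 and the 44.7% in clusters of 2 to 9. Over all other regions the share was 38.3%, since that group includes 9696 regions with no linked neighbour.

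Close neighbours were joined to see how many separate sites the clusters held. After regions less than 1000 bp apart were joined, the 5539 members formed 3593 sites. A cluster had a median of 16 sites, with a lowest value of 8 and a highest of 39. The cluster on chromosome 12 with 64 regions had 39 sites, and the one on chromosome 14 with 65 regions had 38, so their order by sites is the reverse of that by regions. Of the 210 clusters, 55 still had 20 or more sites, 85 had 15 to 19, 63 had 10 to 14 and 7 had fewer than 10.

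The most tightly packed clusters were short and made of few sites. The highest density, 5.58 regions per 10 kb, was found on chromosome 1 (43502223 to 43539884), where 21 regions lay in 37.7 kb and formed 10 sites. The second, also on chromosome 1 (161953954 to 161992427), had 5.46 per 10 kb, with 21 regions in 38.5 kb that formed 8 sites. The third, on chromosome 13 (23515702 to 23559073), had 5.30 per 10 kb and 23 regions in 9 sites. In that cluster the median gap was 286 bp, the lowest of all 210 clusters, while its longest gap was 9716 bp, so its regions stood in tight groups set well apart. The fourth, on chromosome 12 (102214007 to 102267924), was built otherwise, with 27 regions in 18 sites at 5.01 per 10 kb and a median gap of 1419.5 bp. The last of the 5 was on chromosome 10 (117266672 to 117311358), with 22 regions in 10 sites at 4.92 per 10 kb. At the other end, the sparsest cluster, on chromosome 15 (27507723 to 27611475), had 20 regions in 103.8 kb at 1.93 per 10 kb. It was chosen after its value was seen. Its median gap, 4549 bp, was the highest of the 210 clusters.

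The share of bases in regions ranked the clusters in another order. It was highest, 10.6%, in the second cluster of the density ranking on chromosome 1 (161953954 to 161992427). Next came clusters on chromosome 17 (73482511 to 73525348) with 10.2% and chromosome 6 (83360094 to 83406938) with 10.1%, each of 20 regions. The cluster on chromosome 12 (102214007 to 102267924) followed with 9.99%, and one of 26 regions on chromosome 3 (89662159 to 89717249) with 9.87%. The cluster on chromosome 17 had no member narrower than 156 bp and no inner gap longer than 5698 bp, which was the lowest longest gap among all clusters. Over the 210 clusters the share averaged 6.66 ± 1.28% (SD) and its lowest value was 4.04%.

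**Figure D2:**
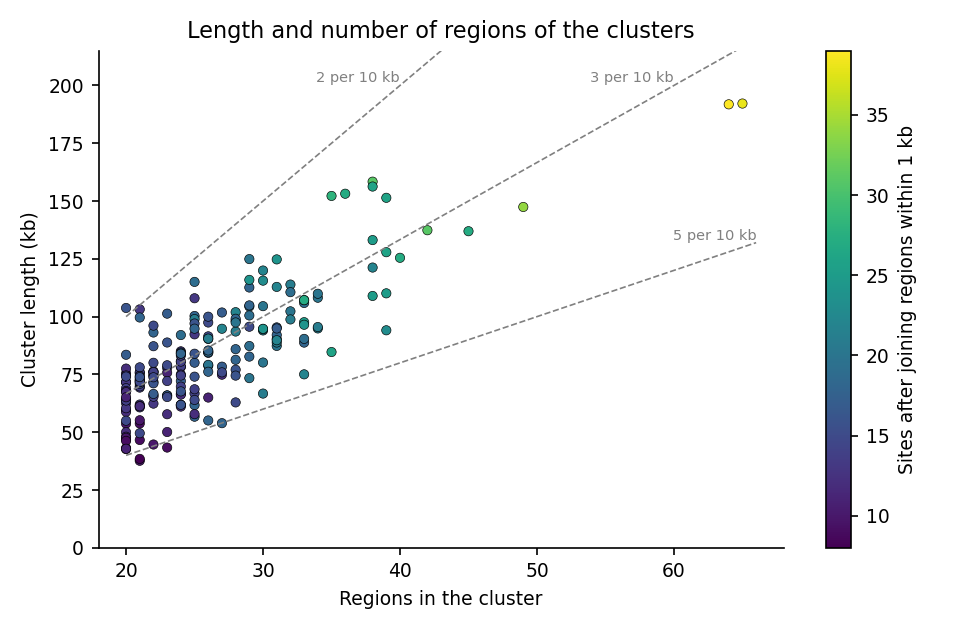
Length in kb (vertical axis) against the number of regions (horizontal axis) of each of the 210 clusters (points); colour is the number of sites left after regions within 1 kb were joined, and dashed lines mark 2, 3 and 5 regions per 10 kb. Most clusters lie near the middle line, the 4 below the lowest line hold 21 to 27 regions, and the pair of 64 and 65 regions stands apart at 192 kb.

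Most clusters were held together somewhere by a long link. The longest inner gap had a median of 11020.5 bp, and it was 10 kb or more in 146 clusters and shorter in 64. No cluster had all of its gaps under 5 kb. With links of 5 kb, 4 stretches of 20 or more regions were left, each inside 1 of the clusters. They held 25 regions over 45.9 kb of chromosome 1 (60931712 to 60977599), 22 over 38.0 kb of chromosome 8 (84280658 to 84318627), 21 over 44.2 kb of chromosome 6 (114842612 to 114886842) and 20 over 42.7 kb of chromosome 6 (15660751 to 15703499). The stretches on chromosomes 1 and 8 are cores of the largest clusters of those chromosomes. The clusters of 64 and 65 regions on chromosomes 12 and 14 have no such core, as they broke into runs of fewer than 20 regions.

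The clusters lay in surroundings that were themselves rich in regions. Between 20 and 30 kb outward from a cluster edge, the mean density was 1.16 regions per 10 kb, and between 190 and 200 kb it was 0.610, against a mean of 0.286 over the 20 chromosomes. The first 10 kb were empty by construction. The same profile around the 983 clusters of 10 to 19 regions ran from 1.04 between 20 and 30 kb to 0.650 between 190 and 200 kb, so the surroundings of large and middle-sized clusters had similar values. The median gap was 19361.5 bp before a cluster and 20481.5 bp after it. Both bounding gaps were under 25 kb for 95 clusters, 1 of them was for 87, and neither was for 28.

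**Figure D3:**
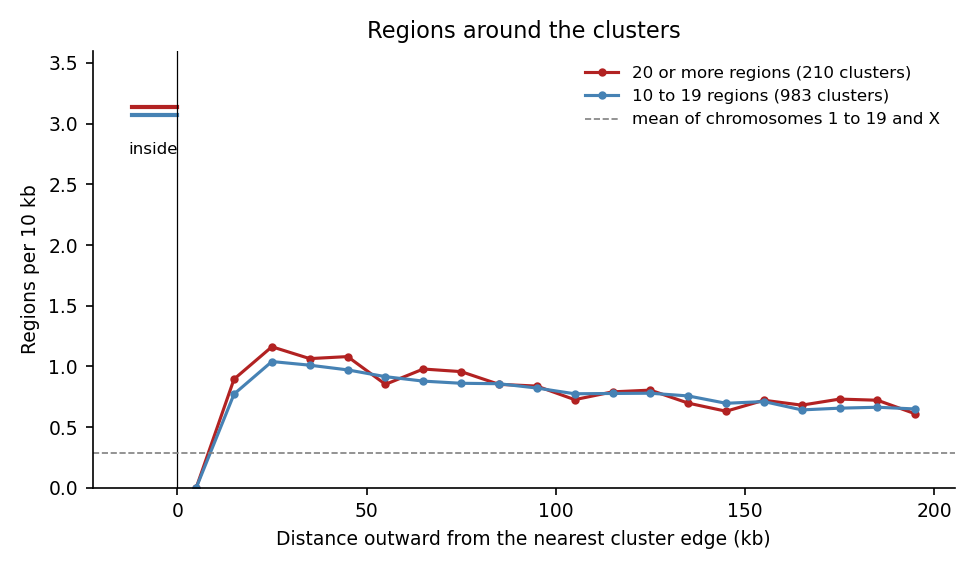
Mean number of regions per 10 kb (vertical axis) by distance outward from the nearest cluster edge, in kb, both sides averaged (horizontal axis), for clusters of 20 or more (red) and of 10 to 19 regions (blue); short bars at left give the density inside and the dashed line the mean of the 20 chromosomes. Both curves start at 0, since the rule leaves the first 12.5 kb empty, and reach 1.16 and 1.04 between 20 and 30 kb. They then fall slowly and are still near 0.6 at 200 kb, above the dashed line at 0.286.

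Only 1 cluster stood alone on both sides. It lay on chromosome 14 (54795325 to 54879322), held 24 regions, and was set off by gaps of 133303 bp before and 101018 bp after it, so that no other region lay within 100 kb. Another 11 clusters had a gap of 100 kb or more on 1 side. At the other extreme, 7 pairs of clusters were neighbours with no region between them. The tightest was on chromosome 3, where clusters of 30 (60276079 to 60342804) and 20 regions (60357028 to 60419636) were 14223 bp apart. On chromosome 9, clusters of 20 (32416511 to 32485567) and 29 regions (32500517 to 32573918) were 14949 bp apart, and on chromosome 2, clusters of 22 (117125391 to 117200320) and 21 (117215736 to 117276482) were 15415 bp apart. The pair with the most regions, 61 over 234.4 kb, was on chromosome 1 (167564643 to 167666577 and 167693098 to 167799005). The remaining pairs were on chromosome 4 (32303543 to 32401004 and 32418031 to 32519824), chromosome 9 (14636605 to 14736579 and 14769923 to 14850454) and chromosome 10 (117266672 to 117311358 and 117330277 to 117396869). The second cluster of the pair on chromosome 10 held one of the 5 widest members of all.

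Dense megabases held cluster centres more often than megabases as a whole, but the overlap was only partial. The rule itself favours such an excess, because a cluster adds its own regions to the count of the megabase in which it lies. The counts are therefore given as a description, and no conclusion is drawn from the excess. The centres of the 210 clusters fell in 189 bins of 1 Mb, and the bin of a cluster held a median of 80 regions, between 24 and 187. The 77 bins with 100 or more regions together held the centres of 49 of the 210 clusters, and 39 of these 77 bins held none. For comparison, the 189 bins with a centre were spread over 2635 Mb of chromosome, so most bins held none. The share of all regions that lay in the 77 dense bins was not counted, so no comparison per region is given. The bin with the fewest regions among those with a cluster centre was on chromosome 6, where a single cluster (117791031 to 117894181) held 21 of the 24 regions. The only bin with 3 cluster centres was on chromosome 9 (32000001 to 33000000), with 126 regions.

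The rule did not select on width, although the end of a region, and so its width, enters the gap to the next one. Members had a median width of 196 bp, with 25th and 75th percentiles of 166 and 234 bp, and all other regions one of 191 bp, with percentiles of 165 and 226 bp. The median rose over 4 classes of cluster size. It was 189 bp for regions with no linked neighbour and 191 bp in clusters of 2 to 9. It was 194 bp in clusters of 10 to 19 and 196 bp in clusters of 20 or more. Among the 210 clusters themselves, median width did not rise with the number of regions (Spearman rho -0.03). The lower quartile stayed within 165 and 167 bp in these 4 classes, whereas the upper quartile rose from 222 to 226, 230 and 234 bp. The quartiles thus differed in the upper part of the distribution. The narrow end differed as well. Regions under 150 bp were 4.82% of those with no linked neighbour and 10.4% in clusters of 2 to 9. They were 11.1% in clusters of 10 to 19 and 11.0% of members. Members of 201 to 300 bp made up 39.8%, against 35.3% of other regions, and members of 151 to 200 bp 36.9%, against 43.2%.

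The width difference ran in 1 direction on most chromosomes. The median of members was higher than that of other regions on 18 of 20 chromosomes, equal on chromosome 8 and lower by 4 bp on chromosome 16. The mean difference of medians was 6.03 ± 5.04 bp (SD, n = 20 chromosomes), and the largest, 14 bp, was found on chromosome 5 and on X. It is small beside the spread of widths, whose SD was 62.4 bp among members and 59.0 bp among others. No test was made, because regions and chromosomes of 1 list are not replicates of a condition.

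**Figure D4:**
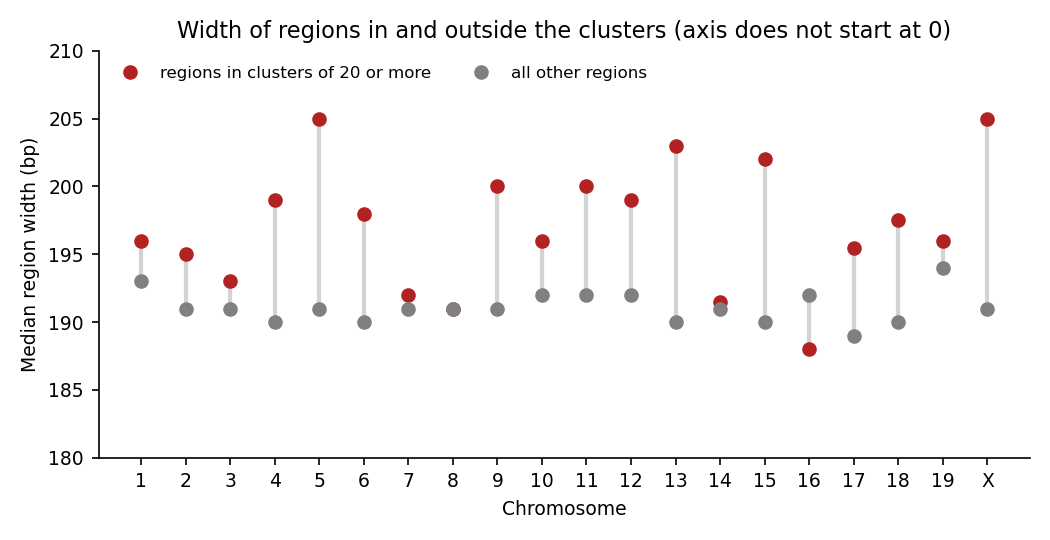
Median width in bp (vertical axis, not from 0) of regions in clusters of 20 or more (red) and of all other regions (grey) on each chromosome (horizontal axis), joined by a line. Red lies above grey on 18 of 20 chromosomes, the points coincide on chromosome 8, where grey covers red, and red lies below grey on chromosome 16.

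The difference was also seen within each of 3 classes of distance to the nearest neighbour. The gap on the other side was not matched, and the others pool all smaller clusters. Among regions whose nearest neighbour was under 500 bp away, the median width was 193 bp for 2394 members and 189 bp for 26762 others. At 500 bp to 2 kb it was 198 bp for 1767 members and 194 bp for 13215 others. At 2 to 12.5 kb it was 201 bp for 1378 members and 193 bp for 20144 others. Members were wider on 16, 14 and 17 of the 20 chromosomes in these 3 classes. Within the clusters, the 420 members at the edges had a median width of 198.5 bp and the 5119 inside one of 196 bp.

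The list has 12 even widths, from 94 to 150 bp, that hold far more regions than the widths beside them. They took 15.1% of the members (834), 15.2% in clusters of 10 to 19, 14.5% in clusters of 2 to 9 and 11.3% of the regions with no linked neighbour. Without them, the median width was 206 bp in the clusters and 199 bp elsewhere. The width of 150 bp alone held 5.25% of members and 5.59% of other regions. Exactly 94 bp, the narrowest value in the list, was found in 2.18% of members and 1.76% of others.

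The share of these narrow regions varied between clusters. A cluster held a median of 25 regions, so a few regions move its share by many points. Whether the sharing was uneven beyond this was not tested. Their share ranged from 0% to 42.9% of a cluster's members, with a median of 14.3% and an SD of 7.65 percentage points over clusters. It was highest in the densest cluster, on chromosome 1 (43502223 to 43539884), at 42.9%. It was 39.1% in the dense cluster on chromosome 13 (23515702 to 23559073) and 38.7% in the largest cluster of chromosome 16 (23218605 to 23308402). All 12 widths are 150 bp or less, below the median of members (196 bp), so a high share by itself lowers the median width of a cluster. The median width was 165 bp in that cluster of chromosome 16, the lowest value of all, and 169 bp in the densest cluster. The second lowest, 166 bp, was on chromosome 8 (47772244 to 47848242), where the share was 38.1%. The remaining pair of the 5 lowest medians was 169 bp on chromosome 3 (107596924 to 107670271) and 171.5 bp in the isolated cluster on chromosome 14.

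The 5 highest median widths were found in clusters of 20 to 25 regions. Such sizes were common, as 103 of the 210 clusters held 20 to 24 regions. The median was 240 bp over 22 regions on chromosome 11 (104432928 to 104529038), 237 bp over 20 on chromosome 1 (163664510 to 163739909) and 236 bp over 20 on chromosome 9 (114639141 to 114706988). Then came 234 bp over 25 regions on chromosome 5 (73542039 to 73657058) and 229.5 bp over 20 on chromosome 1 (87846815 to 87918484). Over all clusters the median widths averaged 197 ± 13.6 bp (SD, n = 210). Given as a description across 210 clusters of the same list, their Spearman rho was -0.03 with the number of regions and -0.14 with density.

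Very wide members were few. There were 392 members wider than 300 bp, or 7.08%, against 6.17% of other regions, and the share was higher in members on 14 of 20 chromosomes. There were 12 members wider than 500 bp, or 0.217%, and 122 other regions, or 0.175%. The widest was a region of 658 bp on chromosome 4 (6867842 to 6868499), in a cluster of 38 regions (6785547 to 6918660) with a median width of 216.5 bp. The next were 626 bp on chromosome 2 (117215736 to 117216361), where it is the first region of the second cluster of a neighbouring pair, and 614 bp on X (156173777 to 156174390). The remaining pair was 601 bp on chromosome 18 (80911175 to 80911775) and 592 bp on chromosome 10 (117389822 to 117390413). The widest region of the whole list, of 828 bp, lay in a cluster of 2 to 9 regions.

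Clusters occurred on every one of the 20 chromosomes. Chromosome 11 had the most, with 23 clusters that held 10.2% of its regions, followed by chromosome 2 with 20 (8.24%) and chromosome 1 with 19 (9.49%). Chromosome 14 had only 9 clusters, but 9.70% of its 2762 regions lay in them. Chromosome 5 stood low, with 6 clusters and 3.45% of 4431 regions, and chromosome 12 had 5, of which the largest held 64 of its 178 members. The share on the autosomes was 7.26 ± 1.83% (SD, n = 19).

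X had 2 clusters, with 55 members, or 3.21% of its 1711 regions, below the lowest autosome (chromosome 5). Its regions, spread over 166 Mb, were also sparser than those of any autosome (chromosome 14: 2762 over 123 Mb). Shares and rates per region do not adjust for this spacing, whose part was not tested. Per 1000 regions, X had 1.17 clusters and the autosomes 2.74 ± 0.729 (SD, n = 19; lowest 1.35). X thus had 0.427 times the autosome mean. With 2 clusters this ratio is uncertain: it was 0.827 for clusters of 25 or more and 0 for clusters of 30 or more. It was 0.277 for clusters of 15 or more, which gave 3 clusters on X. With links of 5, 10, 15 and 25 kb it was 0, 0.365, 0.283 and 0.376. Both clusters of X lay near the distal end, at 93.8% and 98.3% of the chromosome. Their members had a median width of 205 bp, and 9.09% were of the 12 frequent widths, against 14.9 ± 2.68% on the autosomes (SD, n = 19), which ranged down to 8.46% on chromosome 19.

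**Figure D5:**
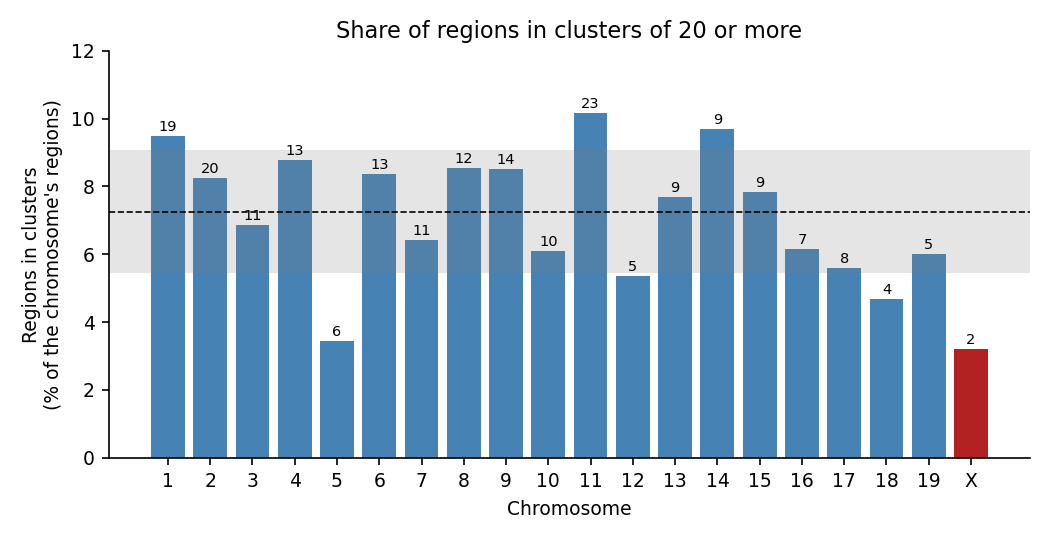
Share of each chromosome's regions that lay in clusters of 20 or more (vertical axis, percent) by chromosome (horizontal axis), with the number of clusters above each bar; the dashed line and grey band are the mean and 1 SD of the 19 autosomes, and X is red. Chromosomes 11, 14 and 1 stand above the band, and chromosomes 5, 12, 18 and X below it.

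Along the chromosomes, clusters followed the regions. From the centromeric to the distal end, the 5 successive parts of equal length held 27, 37, 41, 45 and 60 clusters, or 12.9, 17.6, 19.5, 21.4 and 28.6%. All regions were spread as 14.8, 18.4, 19.2, 21.2 and 26.4%. The median cluster centre lay at 60.9% of the chromosome and the median region at 57.8%. Single cluster centres were widely spread (SD 28.3 percentage points, n = 210), and the difference of the medians was not tested. With a minimum of 25 and 30 regions the median cluster centre lay at 55.3 and 46.7%, below the median region. In the last 5% of chromosome length there were 16 clusters, or 7.62%, against 7.04% of regions. The largest cluster of the list, on chromosome 14, was one of them, with its centre at 99.2% of the length.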

How the data were processed

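Open chromatin of 16 Treg samples from 8 mice was listed by the authors as 1 table of regions for the whole series, whose columns per the file headers are the chromosome and both end positions. The deposited file holds no count, signal or score and 0 unmapped columns of per-sample values. Genome build mm9 and, among the tools, HOMER 4.6, Bowtie2 2.2.4 and cutadapt 1.8.3, with Picard 1.130 and SAMtools 1.3, are listed in the submitters' processing notes. How regions were called, pooled or merged over samples, and whether cut positions were shifted, is not given in the sources used here. Such settings decide how often 1 open site is split into several regions, which bears on every count of clustered regions. Per the labels' protocols, 10000 cells were transposed for 60 min at 37 °C and fragments under 600 bp were selected between the PCR rounds.

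Regions of chromosomes 1 to 19 and X were sorted and linked with Python 3.11.15 and pandas 2.3.3. The 7 regions of Y were left out by the rule. Starts are printed as for a BED file, 1 base above the file's value, and width was end minus start. The file does not state how it counts: if its starts count from 1, every printed start is 1 base too high and every width 1 bp too small, so that the even widths would be odd. A width was called frequent when its number of regions was over 5 times the median of the widths up to 8 bp narrower or wider (that median set to 10 where lower). Named clusters were the largest of each chromosome, 5 each by length, density, share of bases in regions and highest and lowest median width, and the one with the widest member. The longest 5 were on chromosomes 14, 12, 15, 19 and 4. The gene and promoter tables supplied are of another build, GRCm38.p6, so no gene or sequence was assigned to a region. Members and rules were chosen with earlier results of these data known. Linking was tested on simulated data, where all of 20 lists were recovered. The simulated gaps were drawn with the same link distance, so this checks the code only. Alternatives changed the link distance, the minimum size, the merging of neighbours, the widths kept and the regions compared. The comparison of tissues with spleen, and the steps that need genes of the same build, were not run.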

Additional observations from a re-analysis of the deposited data

How the results depend on the processing

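No paired analysis was possible because no value of single samples is in the list, which also means that leaving out a replicate could not be tried. How many clusters there are depends on the settings. With links of 5, 10, 15 and 25 kb there were 4, 118, 313 and 698 clusters, with 88, 2992, 8502 and 22162 members, or 0.117, 3.97, 11.3 and 29.4% of regions. With a minimum of 15, 25 and 30 regions there were 480, 107 and 51 clusters, with 10027, 3300 and 1804 members (13.3, 4.38 and 2.39%). These sets are nested by construction: links of 10 kb kept 54.0% of the members. Linking centre to centre gave 201 clusters and 7.02% of regions. Merging regions within 500 and 1000 bp first gave 88 and 55 clusters, with 2184 and 1306 merged regions (3.72 and 2.43%), regions of median width or more gave 12 with 261 (0.681%), and leaving out the 12 frequent widths gave 121 with 3024 (4.68%); fewer regions enter each of these. The median length, 78.9 kb in the main setting, moved to 43.5 and 146 kb with links of 5 and 25 kb and to 107 kb with a minimum of 30. Otherwise it ran from 63.2 kb (minimum of 15) to 104.5 kb (merged within 1000 bp). These values lie within 1 SD over clusters (25.7 kb), a spread of single clusters that does not measure how stable a median is. The median density moved to 5.10 and 2.00 regions per 10 kb with links of 5 and 25 kb, to 2.43 and 2.16 after merging within 500 and 1000 bp, and to 2.40 for regions of median width or more.

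The median width of members stayed above that of other regions in all 11 alternatives, by 2 bp (against clusters of 10 to 19 regions) to 7 bp (without the frequent widths, a setting added after seeing the data), against 5 bp in the main comparison. The share of frequent widths, 0.900 percentage points higher in members, was lower, at -0.11 points, against clusters of 10 to 19. The share wider than 300 bp, 0.911 points higher, was lower, at -0.55 points, among the 88 members left with links of 5 kb. Clusters per 1000 regions on X were 0.427 times the autosome mean, 0 with links of 5 kb or a minimum of 30, and 0.827 times with a minimum of 25. The ratio was 0.365, 0.283 and 0.376 with links of 10, 15 and 25 kb, and 0.277 with a minimum of 15. Taking the span from first to last region does not enter that ratio. The median place of cluster centres was 60.9% of the chromosome in the main setting. It was 55.3% with a minimum of 25, 46.7% with a minimum of 30 and 47.6% with links of 5 kb (4 clusters). These values lie below the 57.8% of the median region, whereas the remaining alternatives gave 59.4 to 60.9%. All 8 alternatives lay within 1 SD over clusters (28.3 points), but that spread of single positions does not measure how stable a median is. Depth is unknown, so an empty stretch shows only that no region was called in it.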
